A study of Drosophila melanogaster with 30 samples.

Results

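The genes described here are the nuclear genes of oxidative phosphorylation, the machinery with which mitochondria make ATP. They were taken by symbol from the release 6 gene table of Drosophila melanogaster, as all nuclear genes whose symbol starts with ND-, Sdh, UQCR-, COX and a digit, or ATPsyn. This gave 88 genes, all with a value, among 17480 genes with a value in the series. Another 3 symbols, COX1, COX2 and COX3, lie on the mitochondrial genome and were left out. Of the 88 genes, 63 carry the plain name of a subunit, 24 are paralogues whose symbol ends in L (for "like"), and Sdhaf3 is an assembly factor of complex II. The subunits comprise 34 of complex I, 4 of complex II, 6 of complex III, 8 of complex IV and 11 of complex V.

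Complexes I and II pass electrons from NADH and succinate to ubiquinone, complex III passes them on to cytochrome c, and complex IV passes them to oxygen. The proton gradient that complexes I, III and IV build drives complex V, the ATP synthase. All complexes but II combine subunits from the mitochondrial genome with nuclear ones, so that the genes below cover only the nuclear share, and neurons depend on this pathway for most of their ATP.

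The study used Targeted DamID (TaDa), in which the bacterial DNA adenine methyltransferase Dam, alone or fused to the transcription factor CrebB, marks GATC sites close to where it meets DNA. Flies carried mb247-Gal4, tubGal80ts and either UAS-Dam-CrebB or UAS-Dam, which limits expression to the cells of the mb247 driver in the mushroom bodies (MBs), and expression was switched on at 29 °C. The labels give 15 Dam::CrebB and 15 Dam-only samples, each made from 50 to 100 adult heads, so that 1 sample pools many flies. Paired flies had received an odour together with sucrose and unpaired flies had received both apart. The paper describes the flies as starved before training. In time interval 1 (TI-1) the transgenes were on from 3 h before to 24 h after training, which took place at 25 °C. In time interval 2 (TI-2) they were on from 24 to 48 h after training at 18 °C. The groups were paired TI-1, unpaired TI-1, paired TI-2, unpaired TI-2 and naïve flies, which were not trained and have no interval in the labels, with 3 replicates each. All groups share the driver, the Gal80ts transgene and the shift to 29 °C as far as the labels and methods say.

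Each value is a log2 Dam::CrebB/Dam ratio, for a gene the mean over its GATC fragments weighted by their length. A value above 0 means more methylation by the fusion than by Dam alone and is not an expression level. The labels and files give no read number for single libraries, and the methods of the study give only an average. The depth behind each ratio is therefore not known here. Each group has 3 replicates. For contrasts with naïve flies, and between intervals within paired or unpaired flies, the spread of a gene was estimated over all 15 profiles. The SE of such a contrast therefore also reflects groups outside it. The oxidative phosphorylation genes are short, with a median of 6 fragments (1 to 130), against 8 over all genes. The profile of replicate 3 of paired TI-1 stood apart over all genes, with a median gene value of 0.62, against 0.00 to 0.12 in the other 14 profiles. Over all fragments its correlations with the others were -0.20 to 0.60. Markers of MB cells were above the markers of fat body in naïve flies, with medians of 0.39 for 8 MB genes and -0.21 for 3 fat body genes, while 4 glia markers had 0.11 and 3 photoreceptor markers 0.18. These are ratios too, with the fusion and Dam alone expressed by the same driver, so they do not count cells of a type. Why the marker lists differ was not tested.

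In naïve flies the 63 subunit genes had a median log2 ratio of 0.18, against 0.01 over all genes, and the 24 paralogues had -0.04. In naïve replicates 1, 2 and 3 the subunit median was 0.06, 0.16 and 0.23, against 0.001, 0.008 and 0.035 over all genes. In unpaired TI-2 flies it was 0.03, against 0.02 over all genes. In paired TI-1, unpaired TI-1 and paired TI-2 flies it was 0.52, 0.22 and 0.23, against 0.27, 0.06 and 0.06. The spread among subunits was wide, since their naïve means ran from -0.46 for ND-23 to 1.50 for COX7C. No gene of the 88 passed the threshold of an adjusted p under 0.01 and a size above 0.2 in limma's test against 0, and this held over all genes (0%), where the smallest adjusted p was 0.011. Without adjustment (p under 0.05, size above 0.2), 30 genes were above 0 and 7 below, beside 30% and 18.1% of all genes. At an adjusted p under 0.05, limma called 28 of the 88 above 0, beside 28.6% of all genes, and 7 below 0, beside 17.3% of all genes. By replicates alone, 22 of the 88 were above 0.2 in 3 of 3 naïve profiles, beside 22.7% of all genes, and 4 were below -0.2, beside 9.89%. The share of high genes was therefore near the background, and the share of low genes was under it. Among subunits, 24 of 63 were above 0 and 4 below at an adjusted p under 0.05.

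**Figure D1:**
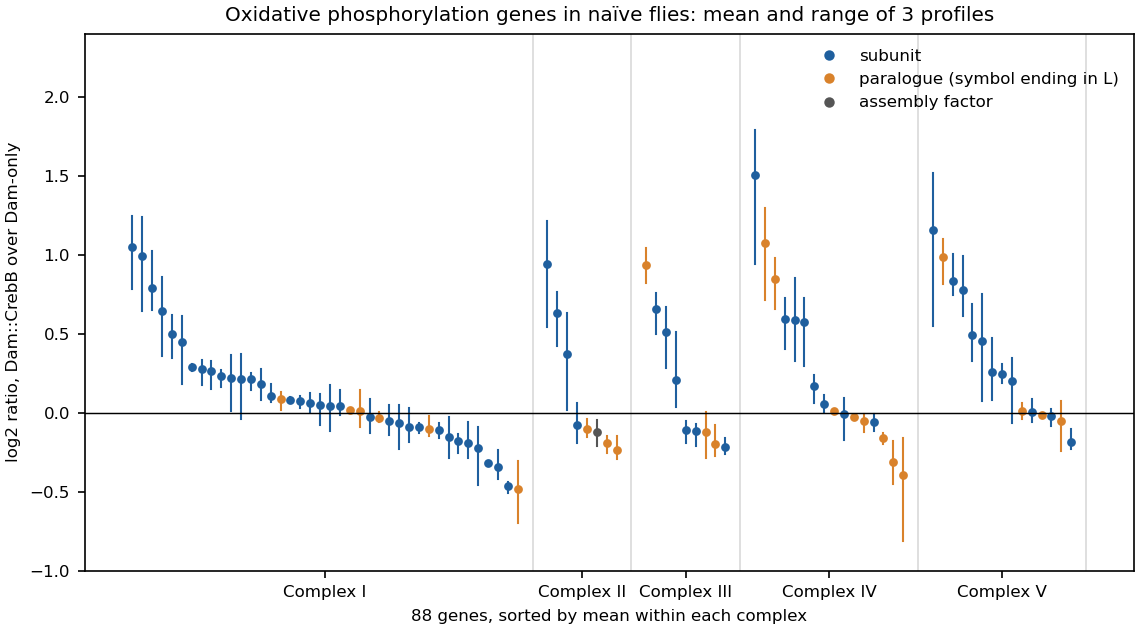
Log2 Dam::CrebB/Dam ratio in naïve flies for the 88 genes (vertical axis), sorted by mean within complexes I to V (horizontal axis); points are means and lines the range of 3 profiles, blue for subunits, orange for paralogues and grey for Sdhaf3. Each complex holds genes from about 1 downwards to below 0, and COX7C of complex IV has the highest mean, 1.50.

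The medians of the complexes were not tested against each other, and each complex held high and low genes. In naïve flies the median over subunits was 0.07 for complex I, 0.50 for complex II, 0.05 for complex III, 0.37 for complex IV and 0.26 for complex V. In naïve replicates 1, 2 and 3 the median was 0.18, 0.39 and 0.45 for IV, and 0.08, 0.35 and 0.48 for V. It was 0.03, 0.10 and 0.11 for I, 0.45, 0.39 and 0.67 for II, and -0.001, -0.007 and 0.22 for III. Over the 5 groups the median ran from -0.003 to 0.52 for I and from 0.43 to 0.62 for II. It ran from 0.05 to 0.235 for III, from 0.22 to 0.53 for IV and from 0.015 to 0.62 for V. In complex I, 13 of 34 subunits had a mean above 0.2 and 4 had a mean below -0.2, against 31.2% and 18.6% of all genes. In complexes II, III, IV and V, the numbers above 0.2 were 3 of 4, 3 of 6, 4 of 8 and 8 of 11, and only UQCR-11 of complex III was below -0.2.

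In complex I the highest gene was ND-51, which encodes the flavoprotein that binds NADH (2L, 6060842 to 6062757). Its log2 ratio was 0.78, 1.13 and 1.24 in the 3 naïve profiles, with a mean of 1.05 ± 0.24 (SD, n = 3; limma adjusted p = 0.011). It was above 0.2 in all 15 profiles. ND-23, an iron-sulphur subunit of the same complex (3R, 15836048 to 15837117), was the lowest subunit. It had -0.43, -0.45 and -0.51 in naïve flies and a mean of -0.46 ± 0.04 (limma adjusted p = 0.011). Each of its 3 fragments also touches another gene, and the microRNA gene mir-4911 overlaps its body. ND-75, the largest iron-sulphur subunit of the core, was between them, with 0.08, 0.28 and 0.19 in naïve flies (adjusted p = 0.0485). With an unweighted mean over fragments its value was -0.02, so its direction depends on how the fragments are weighted. ND-MLRQ, whose human counterpart has been reassigned to complex IV, was counted here by its symbol and had -0.30, -0.33 and -0.33.

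In complex II the membrane anchor SdhD was highest, with 0.55, 1.07 and 1.22 in naïve flies (mean 0.95 ± 0.35, limma adjusted p = 0.0165). SdhA, the flavoprotein that oxidizes succinate, had 0.43, 0.77 and 0.70, and a mean of 0.63 ± 0.18 (adjusted p = 0.013). SdhB, the iron-sulphur subunit that takes electrons from SdhA, was lowest with 0.06, -0.11 and -0.19, which did not differ from 0 beyond the spread of the replicates (adjusted p = 0.339). The 4 subunits of this complex, which work together in equal numbers, thus spanned values from -0.08 to 0.95.

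In complex III, UQCR-Q, a small accessory subunit, was highest with 0.50, 0.76 and 0.70 in naïve flies (mean 0.66 ± 0.14, limma adjusted p = 0.011). The core protein UQCR-C1 had 0.59, 0.28 and 0.67 (mean 0.51 ± 0.20, adjusted p = 0.0192). The accessory subunit UQCR-11 was lowest with -0.16, -0.26 and -0.24 (mean -0.22 ± 0.05, adjusted p = 0.0183), and it was the only one of the 88 genes at or below 0 in all 15 profiles. The other core protein, UQCR-C2, was on the other side of 0 with -0.07, -0.21 and -0.07.

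In complex IV, COX7C, a small subunit of the nuclear set (2R, 10048353 to 10050066), was the highest of all 88 genes. It had 0.94, 1.79 and 1.78 in naïve flies and a mean of 1.50 ± 0.49 (limma adjusted p = 0.0136), which put it at the 98.9th percentile of all genes. COX4, a nuclear subunit needed early in assembly of the enzyme, was lowest with -0.05, -0.11 and -0.01 (adjusted p = 0.271). The other subunits fell into a higher set, with COX7A, COX6B and COX8 at 0.57 to 0.59, and a lower set, with COX7B, COX5B and COX5A at -0.01 to 0.17.

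In complex V, ATPsynG, a membrane subunit of the ATP synthase, was highest with 0.55, 1.52 and 1.41 in naïve flies (mean 1.16 ± 0.53, limma adjusted p = 0.0227). ATPsynC, which forms the rotating ring in the membrane, had 0.75, 0.75 and 1.01 (mean 0.83 ± 0.15, adjusted p = 0.011). ATPsynbeta, the catalytic subunit (4, 1031484 to 1034917), was lowest with -0.23, -0.23 and -0.10 (mean -0.19 ± 0.07, adjusted p = 0.0326). It was above 0 in 1 of 15 profiles. ND-49, a catalytic core subunit of complex I and the other gene of the 88 on chromosome 4, had a naïve mean of 0.05 ± 0.15.

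Most paralogues had a naïve ratio near or below 0. A parent gene was among the 88 for 20 of the 24 paralogues, and the paralogue was lower than its parent in 3 of 3 naïve profiles for 12 pairs, higher in 3 of 3 for 4 pairs and mixed for 4. The paralogue minus parent difference had a median of -0.13, -0.23 and -0.30 over the 20 pairs in naïve replicates 1, 2 and 3. In all 15 profiles the paralogue was the lower one in 10 to 16 of the 20 pairs. ND-51L1 and ND-51L2 had naïve means of 0.09 ± 0.06 and 0.01 ± 0.12, against 1.05 ± 0.24 for ND-51, and were lower than it in 15 of 15 profiles. All 14 fragments of ND-51L1 and all 12 of ND-51L2 are shared with another gene. SdhAL had -0.23 ± 0.07, against 0.63 ± 0.18 for SdhA, and was lower in 14 of 15 profiles. ND-24L was the lowest paralogue, with -0.31, -0.69 and -0.45 in naïve flies (limma adjusted p = 0.0202), against 0.11 ± 0.07 for ND-24.

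**Figure D2:**
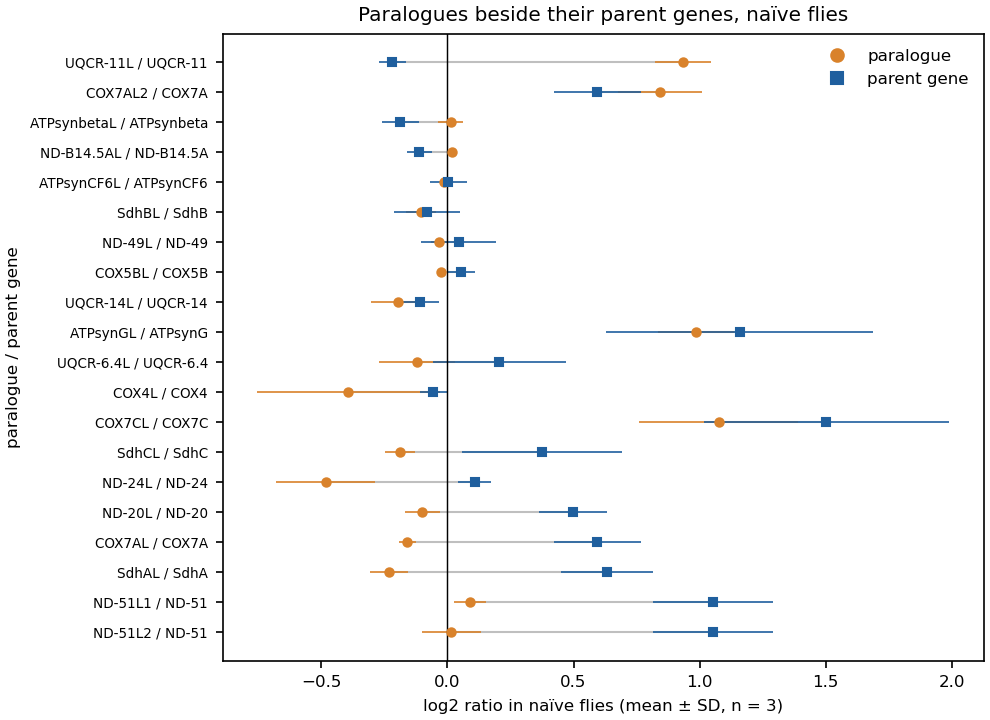
Naïve log2 ratio (horizontal axis, mean ± SD of 3 profiles) of 20 paralogues (orange circles) and their parent genes (blue squares), sorted by the paralogue minus parent difference (vertical axis). UQCR-11L, at 0.93, lies furthest above its parent UQCR-11, at -0.22, and ND-51L2, at 0.01, lies furthest below ND-51, at 1.05.

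Of the paralogues, 4 had high ratios. COX7CL was the highest with 0.72, 1.30 and 1.21 in naïve flies (mean 1.08 ± 0.31, limma adjusted p = 0.0126), against 1.50 ± 0.49 for COX7C. The genes are neighbours on 2R, since COX7CL (10050348 to 10050874) starts 282 bp after COX7C ends, and both of its 2 fragments are shared with another gene, where sel overlaps it. Its fragment from 10049840 to 10050746 begins before COX7C ends and counts for both genes. ATPsynGL had 0.82, 1.10 and 1.04 (adjusted p = 0.011) from a single fragment, against 1.16 ± 0.53 for ATPsynG. UQCR-11L (2R, 8677219 to 8677661) had 0.82, 1.04 and 0.93 (mean 0.93 ± 0.11, adjusted p = 0.011), against -0.22 ± 0.05 for UQCR-11, and was the higher one in all 15 profiles. It overlaps Acsl, and all 4 of its fragments are shared with another gene. COX7AL2 had 0.66, 0.98 and 0.89 over 13 fragments, of which 1 is shared with another gene, against 0.59 ± 0.17 for COX7A. COX7AL, a further paralogue of the same parent, had -0.16 ± 0.03.

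Neighbouring genes share fragments in this assay, so the value of a short gene also describes what lies next to it. Of the 88 genes, 48 overlap the body of another gene, 75 share at least 1 fragment with one and 17 share every fragment. All fragments were shared for 11 of 24 paralogues and for 5 of 63 subunits. ND-15 is a special case, because its gene model of 130 fragments overlaps 14 other genes and its naïve mean of 0.28 ± 0.09 describes that region. Compared with the 5 kb on both sides, the gene body had the higher naïve value for 36 of 63 subunits and for 10 of 24 paralogues, with median differences of 0.05 and -0.10. By complex, the median difference between body and flanks was -0.01 for complex I, 0.48 for II, 0.19 for III, 0.03 for IV and 0.27 for V. ND-75 and SdhB had flanks above their bodies, with 1.01 and 0.71 in the flanks, against 0.18 and -0.08 in the bodies.

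Across the 15 profiles the order of the genes was similar, with the largest departures in the replicate 3 profiles of trained flies. Over the 88 genes the correlation with the naïve mean was 0.75 to 0.95 in the profiles of replicates 1 and 2, a description over genes that share libraries and, in part, fragments. It was 0.96 in naïve replicate 3, 0.73 in unpaired TI-1 replicate 3, 0.66 in unpaired TI-2 replicate 3, 0.53 in paired TI-2 replicate 3 and -0.10 in paired TI-1 replicate 3. Naïve profiles were compared with the mean of the other naïve profiles only. The genes above 0.2 in all 15 profiles numbered 10 of 88, beside 9.39% of all genes. They were ND-51, ND-39, SdhD, UQCR-C1, UQCR-11L, COX7C, COX6B, COX7AL2, ATPsynG and ATPsynC.

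In paired TI-1 replicate 3 many genes with low ratios elsewhere were high. The median of the 88 genes was 0.92 in this profile, against 0.09 and 0.03 in the other paired TI-1 profiles, and over all genes it was 0.62. For 64 of 88 genes this profile held the highest of the 15 values, as it did for 65.6% of all genes. ND-18, an accessory subunit of complex I, had 2.91 there, against 0.38 and 0.15 in the other paired TI-1 profiles. ND-B15, another accessory subunit, had 2.66, against -0.06 and 0.08. Several genes with high ratios elsewhere were low in the same profile. SdhA had 0.01, against 0.49 and 0.41 in the other paired TI-1 profiles, UQCR-Q had -0.23, against 0.52 and 0.48, and COX7C had 0.34, against 1.06 and 1.08. Paired TI-2 replicate 3 also held high values, with 1.84 for ND-18 and 3.18 for ATPsynG, which was above 0.2 in all profiles and had there the highest value of any of the 88 genes. The other paired TI-2 profiles had -0.01 and 0.00 for ND-18 and 0.29 and 0.73 for ATPsynG.

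**Figure D3:**
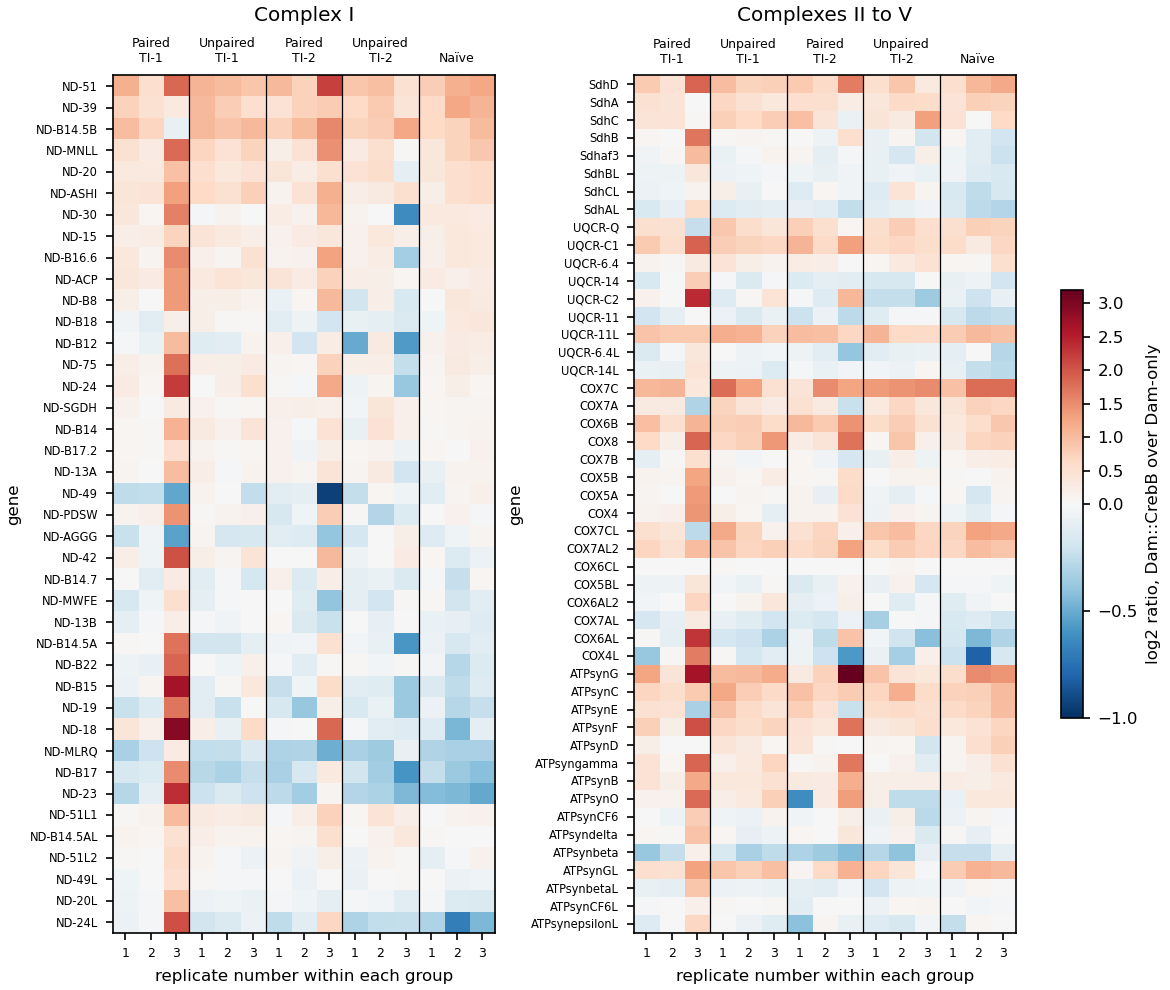
Log2 Dam::CrebB/Dam ratio (colour, red above 0 and blue below 0, with unequal steps on the 2 sides) for each of the 88 genes (rows) in each of the 15 profiles (columns, replicates 1 to 3 of paired TI-1, unpaired TI-1, paired TI-2, unpaired TI-2 and naïve flies). The column of paired TI-1 replicate 3 is red for most genes, with 2.91 for ND-18, and SdhA, UQCR-Q and COX7C are paler or blue there than in their other columns.

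For TI-1, which spans the formation and consolidation of the memory, paired and unpaired flies were compared within replicate numbers. None of the 88 genes passed the threshold in limma, as over all genes (0%), and the smallest adjusted p was 0.836. At an unadjusted p under 0.05 and a size above 0.2, 3 of the 88 were lower in paired flies, beside 1.02% of all genes, and 0 were higher, beside 0.00572%. The median paired minus unpaired difference was 0.17 for the 88 genes and 0.11 over all genes. With profiles centred on the median gene it was 0.00 for the 88 genes and -0.06 over all genes, and with quantile normalization it was -0.01 and -0.03. By complex the median was 0.24 for I, 0.02 for II, 0.13 for III, 0.13 for IV and 0.24 for V. These medians rest on replicate 3. The median over the 88 genes was -0.06 in replicate 1, -0.03 in replicate 2 and 0.66 in replicate 3. Without replicate 3 it was -0.04, as over all genes, and limma called 0 genes, while 2 of the 88 were higher and 14 lower in paired flies at an unadjusted p under 0.05, beside 127 and 970 of all 17480 genes. In replicate 3 other markers differed too, with median paired minus unpaired differences of 0.73 for glia, 0.92 for fat body, 0.19 for photoreceptor and 0.20 for MB markers, and their part in the result was not tested.

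COX7CL had the smallest unadjusted p of the 88 genes at TI-1. COX7CL is a paralogue of a complex IV subunit and shares its fragments with sel. Its fragment with the highest naïve ratio also counts for COX7C. Its ratio was 0.51, 0.40 and -0.26 in paired flies, against 1.21, 0.72 and 0.13 in unpaired flies. The groups overlap, but the paired value was the lower one in 3 of 3 pairs, with a mean difference of -0.47 ± 0.12 (SE; limma adjusted p = 0.836). Its neighbour COX7C had 1.06, 1.08 and 0.34 in paired flies, against 1.80, 1.29 and 0.50 in unpaired flies, a mean difference of -0.37 with the same direction in 3 of 3 pairs. Because of the shared fragment, COX7C and COX7CL are not separate observations. ND-49 had -0.25, -0.25 and -0.52 in paired flies, against 0.12, -0.01 and -0.25 in unpaired flies, with no overlap beyond the rounded digits and a mean difference of -0.30 ± 0.09 (adjusted p = 0.836). ND-39, an accessory subunit of complex I, had 0.75, 0.49 and 0.30 in paired flies, against 1.04, 0.79 and 0.54 in unpaired flies, a difference of -0.27 ± 0.09 (adjusted p = 0.836).

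Genes with high and low naïve ratios were also looked at apart in the TI-1 pairs. Of the 15 subunits with a naïve mean above 0.5, a level chosen after the values were seen, 11 were lower in paired flies in replicate 1, 15 in replicate 2 and 7 in replicate 3. Of the other 48 subunits, 28, 28 and 4 were lower. Over all 2610 genes above this level the shares were 83.1%, 89.1% and 39.3%, and over all other genes 76.8%, 46.7% and 12.9%. In replicate 2 the whole paired TI-1 profile was narrow, with an SD of 0.27 over genes, against 0.37 in unpaired TI-1 replicate 2. Over all 88 genes, 11 were above 0 in 3 of 3 pairs, beside 10.3% of all genes, and 11 were below 0, beside 10.1%. Paired and unpaired values did not overlap for 3 genes that were higher (ND-B14.5A, ND-B17 and COX6AL), beside 4.27% of all genes, and for 2 that were lower (ND-49 and SdhC), beside 2.18%.

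**Figure D4:**
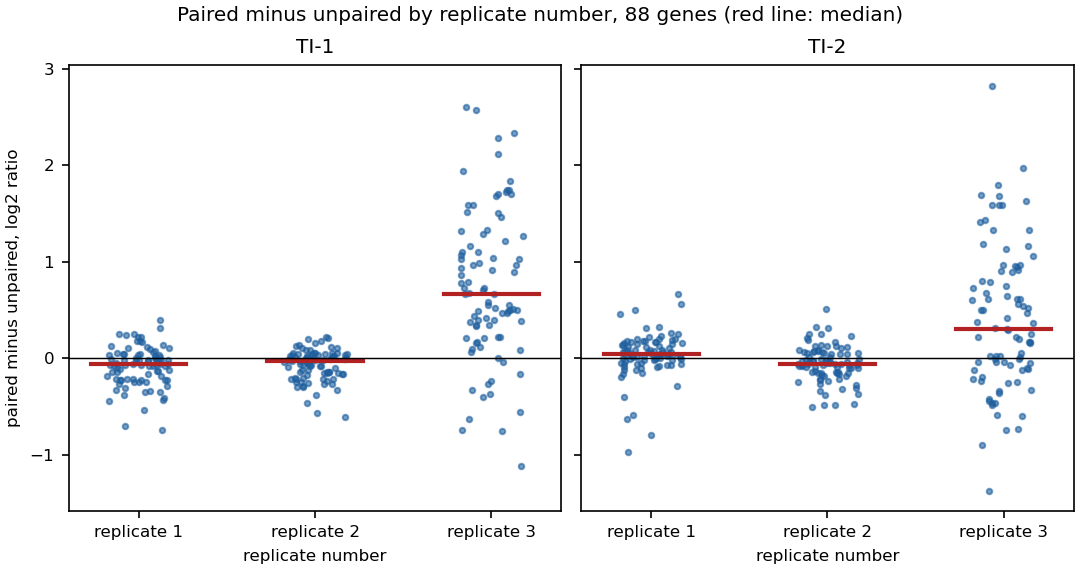
Paired minus unpaired log2 ratio of the 88 genes (points, vertical axis) for replicates 1, 2 and 3 (horizontal axis) at TI-1 (left) and TI-2 (right), with the median over genes as a red line. At both intervals the points of replicate 3 spread furthest, with a median of 0.66 for TI-1, against 0.31 for TI-2.

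For TI-2, which covers the early maintenance of the memory, none of the 88 genes passed the threshold either, as over all genes (0%), with a smallest adjusted p of 0.891 in limma. At an unadjusted p under 0.05 and a size above 0.2, 1 gene was lower in paired flies, beside 0.28% of all genes, and 0 were higher, beside 0.292%. Without the replicate block these counts were 0 lower and 1 higher for TI-2, and 1 lower and 0 higher for TI-1. The median paired minus unpaired difference was 0.07 for the 88 genes and 0.02 over all genes. It was 0.04 in replicate 1, -0.05 in replicate 2 and 0.31 in replicate 3, where the median over all genes was 0.09. In replicate 3 the marker medians were 0.58 for glia, 0.17 for fat body, 0.03 for photoreceptor and 0.10 for MB markers, and their part in the result was not tested. By complex the median was 0.18 for I, 0.06 for II, -0.07 for III, 0.17 for IV and 0.17 for V, and without replicate 3 it was 0.00 over the 88 genes.

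The gene with the smallest p was again COX7CL. It had 0.49, 0.68 and 0.17 in paired flies, against 0.90, 0.997 and 0.65 in unpaired flies. The values overlap only between paired replicate 2 and unpaired replicate 3, and the paired value was lower in 3 of 3 pairs, with a mean difference of -0.40 ± 0.07 (SE; limma adjusted p = 0.891). No profile is shared between the TI-1 and the TI-2 comparison. Same-numbered paired TI-1 and paired TI-2 profiles still deviated from their group means together, with r across genes of 0.23, 0.79 and 0.63. For unpaired profiles r was -0.28, 0.02 and 0.21. The comparisons were therefore not shown to be independent. COX7C had 0.40, 1.52 and 1.27 in paired flies, against 1.37, 1.44 and 1.51 in unpaired flies, and was lower in 2 of 3 pairs. COX6B, a subunit on the intermembrane side of the enzyme, had 1.05, 0.84 and 1.44 in paired flies, against 0.59, 0.79 and 0.49 in unpaired flies, with no overlap and a mean difference of 0.49 ± 0.21 (adjusted p = 0.891), or 0.25 without replicate 3. ND-B14.5B, an accessory subunit of complex I, had 0.75, 1.01 and 1.53 in paired flies, against 0.71, 0.80 and 1.23 in unpaired flies (0.18 ± 0.08, adjusted p = 0.891). With quantile normalization the difference of ND-B14.5B was -0.14, so its direction depends on the scaling. Paired values lay above unpaired ones without overlap for 5 genes (ND-30, ND-ACP, UQCR-C2, COX6B and ATPsynB), beside 3.22% of all genes, and below them for 0 genes, beside 2.7%. ND-30, which belongs to the core of complex I, had 0.23, 0.14 and 1.05 in paired flies, against 0.12, 0.02 and -0.63 in unpaired flies, so that its mean difference of 0.64 rests mainly on replicate 3. Without replicate 3 this difference was 0.12.

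The paired minus unpaired difference was then compared between the intervals, as TI-1 minus TI-2. No gene passed the threshold in limma, and all adjusted p of the 88 genes were 1. At an unadjusted p under 0.05 and a size above 0.2, 1 gene was below 0, beside 0.469% of all genes, and 0 were above 0, beside 0% of all genes. This gene was ATPsynD, a stalk subunit of the ATP synthase, with paired minus unpaired differences of -0.22, -0.28 and -0.04 for TI-1, against 0.33, -0.02 and 0.20 for TI-2. The intervals differed by -0.35 ± 0.14 (SE; limma adjusted p = 1). For COX7CL the differences were of like size at the intervals, -0.47 and -0.40.

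The trained groups were also set against the naïve flies, which are the same 3 profiles in all 4 comparisons. Training, the starvation before it, handling and the time of induction cannot be told apart in these comparisons. For naïve flies the paper states like food and temperature, and does not say whether they were starved. None of the 88 genes passed the threshold in any of them, as over all genes (0%). The median difference to naïve flies was 0.23 for paired TI-1, 0.05 for unpaired TI-1, 0.08 for paired TI-2 and -0.03 for unpaired TI-2, against 0.18, 0.05, 0.05 and 0.00 over all genes. Without the replicate 3 profiles of trained flies, the medians of the 88 genes were 0.00, 0.04, -0.01 and -0.01.

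In paired TI-1 flies, 4 genes were above and 5 below naïve flies at an unadjusted p under 0.05 and a size above 0.2, beside 7.61% and 2.65% of all genes. With only the 2 groups compared in the fit, 0 were above and 2 below, beside 66 and 282 of all 17480 genes. COX7CL had 0.51, 0.40 and -0.26 in paired TI-1 flies, against 0.72, 1.30 and 1.21 in naïve flies, with no overlap and a difference of -0.86 ± 0.28 (SE; limma adjusted p = 0.283). ND-39 had a difference of -0.48 ± 0.19 and UQCR-14L, a paralogue of complex III, of 0.30 ± 0.12 (both adjusted p = 0.283). Without the replicate 3 profiles of trained flies the difference of UQCR-14L was 0.13. COX4 was 0.12, 0.17 and 1.41 in paired TI-1 flies, against -0.05, -0.11 and -0.01 in naïve flies (0.62 ± 0.27, adjusted p = 0.283), and its difference rests on replicate 3.

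In unpaired TI-1 flies 0 of the 88 genes reached an unadjusted p under 0.05 with a size above 0.2, beside 0.755% of all genes above and 0.229% below naïve flies. This count depends on the fit, whose spread came from all 15 profiles. With only the 2 groups compared in the fit, 5 genes were above and 2 below, beside 1290 and 75 of all 17480 genes. With array weights 4 were above and 13 below, beside 1611 and 1311 of all genes. In the fit of all 15 profiles the smallest p belonged to UQCR-11 (0.13 ± 0.07), SdhCL (0.23 ± 0.13) and COX7CL (-0.39 ± 0.28), all with an adjusted p of 1 in limma. COX7CL had 1.21, 0.72 and 0.13 in unpaired TI-1 flies, which overlap the naïve values, and without replicate 3 of the trained flies its difference was -0.11.

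In paired TI-2 flies 1 gene was above and 2 were below naïve flies at this level, beside 0.612% and 2.19% of all genes. ND-B18, an accessory subunit of complex I, had -0.10, -0.05 and -0.19 in paired TI-2 flies, against -0.04, 0.31 and 0.37 in naïve flies (-0.33 ± 0.11, limma adjusted p = 1). COX6B had a difference of 0.52 ± 0.19 and COX7CL of -0.63 ± 0.28, both with an adjusted p of 1. In unpaired TI-2 flies 1 gene was above and 3 were below naïve flies, beside 1.58% and 1.33% of all genes. ND-B18 had -0.07, -0.09 and -0.15 in unpaired TI-2 flies and a difference of -0.32 ± 0.11 (adjusted p = 1). ATPsynD had 0.09, 0.05 and -0.18, against 0.08, 0.54 and 0.75 in naïve flies, a difference of -0.47 ± 0.17 (adjusted p = 1), while SdhCL had a difference of 0.32 ± 0.13 and ATPsynGL one of -0.63 ± 0.27. For ND-B18 and ATPsynD naïve replicate 1 lay within or close to the TI-2 values, and the other naïve replicates lay above them.

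Between the intervals, TI-1 minus TI-2, limma called none of the 88 genes within paired or within unpaired flies, as over all genes (0%). In the fit of all 15 profiles, none had an unadjusted p under 0.05 with a size above 0.2. Over all genes, 0.24% were above 0 and 0.229% below 0 within paired flies, and 0.12% and 0% within unpaired flies. With only the 2 unpaired groups in the fit, 9 of the 88 were above 0 and 0 below, beside 1030 and 0 of all 17480 genes. Array weights gave 8 and 0, beside 1332 and 25. The median within unpaired flies was 0.07 for the 88 genes and 0.04 over all genes. By complex it was 0.15 for I, 0.09 for II, 0.01 for III, 0.03 for IV and 0.18 for V. Within paired flies the smallest p belonged to ND-B14.5B (-0.56 ± 0.26), ND-MLRQ (0.27 ± 0.13) and UQCR-6.4L (0.26 ± 0.13), all with an adjusted p of 0.639. With array weights each of these directions turned, with values of 0.01, -0.01 and -0.02. In paired flies ND-B14.5B had 0.997, 0.68 and -0.07 for TI-1, against 0.75, 1.01 and 1.53 for TI-2, so the replicate 3 profiles set its difference. Within unpaired flies ATPsynGL had 0.89, 0.75 and 0.95 for TI-1, against 0.68, 0.39 and -0.02 for TI-2, which do not overlap (0.51 ± 0.27, adjusted p = 1). ND-B18 and UQCR-11L followed with 0.18 ± 0.11 and 0.23 ± 0.15.

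Other gene lists of energy metabolism and of ribosomes were also measured in naïve flies, with no test between lists. The 9 respiratory subunits under other symbols, such as cytochrome c1 and the alpha subunit of ATP synthase (blw), had a median of 0.37, and 5 were above 0 and 0 below 0 at an adjusted p under 0.05 in limma, beside 28.6% and 17.3% of all genes. The 11 genes of the TCA cycle, which feeds NADH and succinate into the chain, had 0.19, with 5 above 0 and 0 below. For 9 assembly factors the median was 0.07 and for 5 regulators of mitochondrial genes 0.11. The 73 mitochondrial ribosomal proteins had 0.11, with 23 above 0 and 6 below, and the 92 cytosolic ribosomal proteins had 0.07, with 28 above 0 and 14 below. In the paired minus unpaired comparison at TI-1 the medians of these lists were 0.05 for the other subunits, 0.29 for the TCA cycle, 0.20 for assembly factors, 0.30 for regulators, 0.22 for mitochondrial and 0.22 for cytosolic ribosomal proteins, and limma called no gene of them at either interval.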

How the data were processed

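The values are the log2 ratios of Dam::CrebB over Dam-only per GATC fragment that the authors deposited for each replicate. They had run a published DamID pipeline on the first reads. It aligns reads to the genome, lengthens them, and forms the ratio from normalized counts to which pseudocounts are added, and a pseudocount shrinks the ratio of fragments with few reads. Deposited gene lists hold the authors' own comparisons and were not used. A gene value is the mean over the fragments that touch a gene, weighted by length, for 17480 genes of a RefSeq table of release 6 without strand. Differences were tested over all genes by lmFit and eBayes of limma 3.58.1 (R 4.3.3; two-sided, Benjamini-Hochberg adjustment), paired minus unpaired within replicate numbers and other contrasts in 1 fit of 15 profiles, and called at an adjusted p under 0.01 and a size above 0.2. These cut-offs are those of the study, which set them on its own statistics and not on limma's. The fits were also run on simulated profiles with known changes and independent noise for each gene. Genes that deviate together or share fragments were not simulated, so that run does not vouch for the tests on these data. Members, lists and tests were chosen with earlier results of these data known. Named genes are the highest and lowest subunit of each complex and a core subunit of each, the 3 smallest p of each contrast, paralogues with their parents, and COX7C with COX7CL. Others, such as ND-18, ND-B15, ND-30, ND-15, UQCR-C2 and SdhC, were named after their values were seen. Alternatives were other gene values, scalings, filters, thresholds, pairings and replicates left out. Plots were drawn with matplotlib 3.10.9. Promoters and sequences were not analysed here.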

Additional observations from a re-analysis of the deposited data

Results flagged for a closer look

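ND-B14.5B, an accessory subunit of complex I, was the gene of the 88 whose paired minus unpaired difference was below 0 in every pair at TI-1 (-0.05, -0.24 and -1.12) and above 0 in every pair at TI-2 (0.03, 0.21 and 0.30). TI-1 minus TI-2 was -0.65 ± 0.31 (SE; limma adjusted p = 1), so the difference between the intervals did not pass the test. The same pattern was found in 71 of all genes (0.406%), and the opposite one, above 0 at TI-1 and below 0 at TI-2, in 9 of all genes and 0 of the 88. Replicate 3 of TI-1 holds most of the value, and the profile of paired TI-1 replicate 3 stood apart over all genes, but its part in the result was not tested.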

How the results depend on the processing

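The number of the 88 genes called was 0 in all 10 comparisons and stayed 0 under most alternatives. Most exceptions concern the naïve ratio against 0, where the smallest adjusted p of 0.011 lies just above the threshold. It gave 24 calls with profiles centred on the median gene (20 above and 4 below 0, beside 28.7% of all genes), 34 with quantile normalization (41.1%), 18 of 56 genes with at least 5 fragments (34.3%), 35 at an adjusted p under 0.05 (45.9%), and 0 to 22 when a replicate was left out, with 22 without replicate 1 (24%) and 0 without replicate 2 or 3. For unpaired TI-1 against naïve flies, array weights gave 5 calls, beside 7.53% of all genes, which were ND-23, ND-24L and SdhB above and ND-B18 and COX7B below naïve flies. Leaving out a replicate gave 0 calls each time in the other 9 comparisons. Directions turned for ND-75 with unweighted fragments (-0.0225), for SdhB (0.0121) and COX4 (0.0014) in naïve flies and ND-B14.5B at TI-2 (-0.1385) with quantile normalization, and, with array weights, for ND-B14.5B (0.0145), ND-MLRQ (-0.0088) and UQCR-6.4L (-0.0227) in paired flies, TI-1 minus TI-2. The cause was not tested. Without the replicate block, calls in the paired minus unpaired comparisons stayed at 0, and with a replicate block in the other 6 contrasts they were 0 as well. Same-numbered paired and unpaired profiles deviated together with r across genes of 0.54, 0.03 and 0.46 for TI-1, against -0.12, -0.09 and -0.25 for TI-2, so the numbers were not shown to pair the samples. The fit without replicate 3 of the trained groups was chosen after seeing the data. Values at the gene start were not run, because the gene table gives no strand. The read number of each library is not given in the files, and several genes rest on 1 or 2 fragments.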
